A study of Mus musculus with 3 samples.

Results

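The cytoplasmic mRNA decay machinery was represented by 46 genes, chosen by symbol from a list of known decay factors, out of 55536 annotated mouse genes. By role, 20 act in deadenylation (the poly(A)-binding proteins included), 9 in decapping and decay from the 5′ end, 7 in nonsense-mediated decay (NMD), 6 in the exosome branch and 4 in microRNA-directed repression. The study measured total RNA by ribosomal RNA-depleted sequencing of cytosol from macrophages grown out of C57BL/6J mouse bone marrow. The 1 group held 3 libraries, taken at 0 minutes of treatment with 100 ng/ml lipid A, the lipid part of bacterial endotoxin, and numbered replicates 1 to 3 by the labels. All 3 libraries carry the same donor label, and neither age nor sex was recorded, so each SD below is the spread of these libraries alone and may be purely technical. No other time or fraction was analysed here, so the data give RNA levels at 0 minutes and no response to lipid A. They do not give amounts of protein or the make-up of complexes.

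Most cytoplasmic mRNAs begin to decay when the poly(A) tail is shortened by the Pan2-Pan3 and Ccr4-Not deadenylases, which free the tail of poly(A)-binding protein. The body of the mRNA is then either decapped by Dcp2 and digested by the exonuclease Xrn1, or digested from the other end by the exosome. NMD removes mRNAs that stop translation too early, and Argonaute with its Tnrc6 partners brings microRNA targets to the deadenylases. In macrophages these enzymes are best known for clearing the short-lived mRNAs of cytokines.

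Expected counts assigned to genes came to 26318761, 41897257 and 56290298 in replicates 1, 2 and 3, of which the 46 genes held 0.395%, 0.389% and 0.369%. The macrophage markers were detected in all libraries (8 of 8, summed level 5120 to 7315 TPM, a level scaled by transcript length and library). Of 29 markers of other lineages, 1 was detected (Ngp of neutrophils, mean 1.83 TPM), 7 were listed at 0 throughout, and their summed level was 2.54 to 4.33 TPM. The nuclear noncoding RNA Malat1 stood apart in replicate 3, with 8520 CPM (counts scaled to library size and a TMM factor for each library), against 1310 and 1330 CPM in replicates 1 and 2. Neat1, another nuclear RNA, had 689 CPM in replicate 3, against 142 and 121 CPM in replicates 1 and 2. The 3 nuclear noncoding RNAs on the marker list together summed to 1101 TPM in replicate 3, against 242 and 223 TPM in replicates 1 and 2. Most of each sum was Malat1, with 224, 207 and 1008 TPM in replicates 1, 2 and 3. Rn7sk, a noncoding RNA outside that list, held 0.894%, 1.84% and 2.16% of expected counts in the same order. It was thus lowest in replicate 1.

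Edc3 and Upf1 each have a pair of transcripts whose shares are described further on, and the stretches where they differ are shown here. The sequences come from the GENCODE M21 transcripts of mm10, 5′ to 3′. Edc3, an enhancer of decapping (chromosome 9, 57708540 to 57752499, plus strand), has a coding transcript, Edc3-201, and a transcript annotated as an NMD target, Edc3-202. Edc3-202 lacks the 320-base exon 3 (chr9:57715948-57716267). The 24 bases on each side of the junction after exon 2 are shown, with the premature stop codon of Edc3-202 in capitals.
Edc3-201: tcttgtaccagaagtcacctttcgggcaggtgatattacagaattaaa
Edc3-202: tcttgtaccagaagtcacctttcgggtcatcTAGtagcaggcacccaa
The stop codon (chr9:57727193-57727195) begins after 7 bases of the joined exon. It leaves 57 codons, against 508 in Edc3-201, and lies upstream of 3 exon junctions, 698 bases before the last of them. Upf1, the RNA helicase at the centre of NMD (chromosome 8, 70331525 to 70353278, minus strand), has 2 coding transcripts that differ in exon 7, which is 118 bases long in Upf1-201 and 85 in Upf1-202. The 33 bases that only Upf1-201 holds (chr8:70339982-70340014) are in capitals between 15 flanking bases on each side.
Upf1-201: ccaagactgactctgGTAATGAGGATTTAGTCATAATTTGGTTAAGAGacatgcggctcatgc
Upf1-202: ccaagactgactctgacatgcggctcatgc
They add 11 codons and keep the reading frame. Upf1-201 also has 67 more bases in exon 1.

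All 46 genes reached 1 TPM in each of the 3 libraries, a threshold that 17.0% of all genes and 40.9% of protein-coding genes reached. By kallisto-format TPM it was 44 of 46, because Pan2 had 0.696, 0.766 and 0.730 TPM and Dcp1b had 0.879 TPM in replicate 3. Mean kallisto-format TPM was lower than the mean TPM used here in every member. It was 115 against 182 TPM for Pabpc1 and 0.731 against 1.11 TPM for Pan2. The same threshold was thus stricter on that scale, and the 17.0% and 40.9% do not apply to the count of 44. At 5 TPM in all 3 libraries there were 25 members, 14 of them in deadenylation, 4 in decapping, 2 in NMD, 2 in the exosome branch and 3 microRNA effectors. That threshold was reached by 9.83% of all genes and 23.9% of protein-coding genes. The members were picked as known factors of a basic pathway, so these shares describe the list and were not tested. Their median level was 5.82 ± 0.331 TPM (SD, n = 3), against 7.15 ± 0.730 TPM for the 9010 protein-coding genes detected in all libraries.

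Among the members, deadenylation had the highest median level of the 5 roles, 7.79 ± 0.721 TPM, against 5.87 ± 0.208 TPM for the microRNA effectors, 4.27 ± 0.306 TPM for decapping, 4.23 ± 0.352 TPM for the exosome branch and 4.10 ± 0.179 TPM for NMD (SD, n = 3 libraries). The medians of the last 3 roles lay within 1 SD of one another. When the 46 genes were ordered by mean TPM, 5 of the 45 neighbouring pairs had ranges over the libraries that did not overlap, among them Pabpc1 over Ddx6 at the top and Dis3 over Pan2 at the bottom. The ranges of the other neighbouring pairs overlapped. TPM was highest in replicate 1 for 38 of 46 members, so these ranges include a shift shared by genes of the same library. Overlap therefore does not show that the order within a library was unsettled. Cnot2 was above its neighbour Cnot3 in each library, whereas Smg1 was above its neighbour Cnot8 only in replicate 3. How many neighbours kept their order in each library was not counted.

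**Figure D1:**
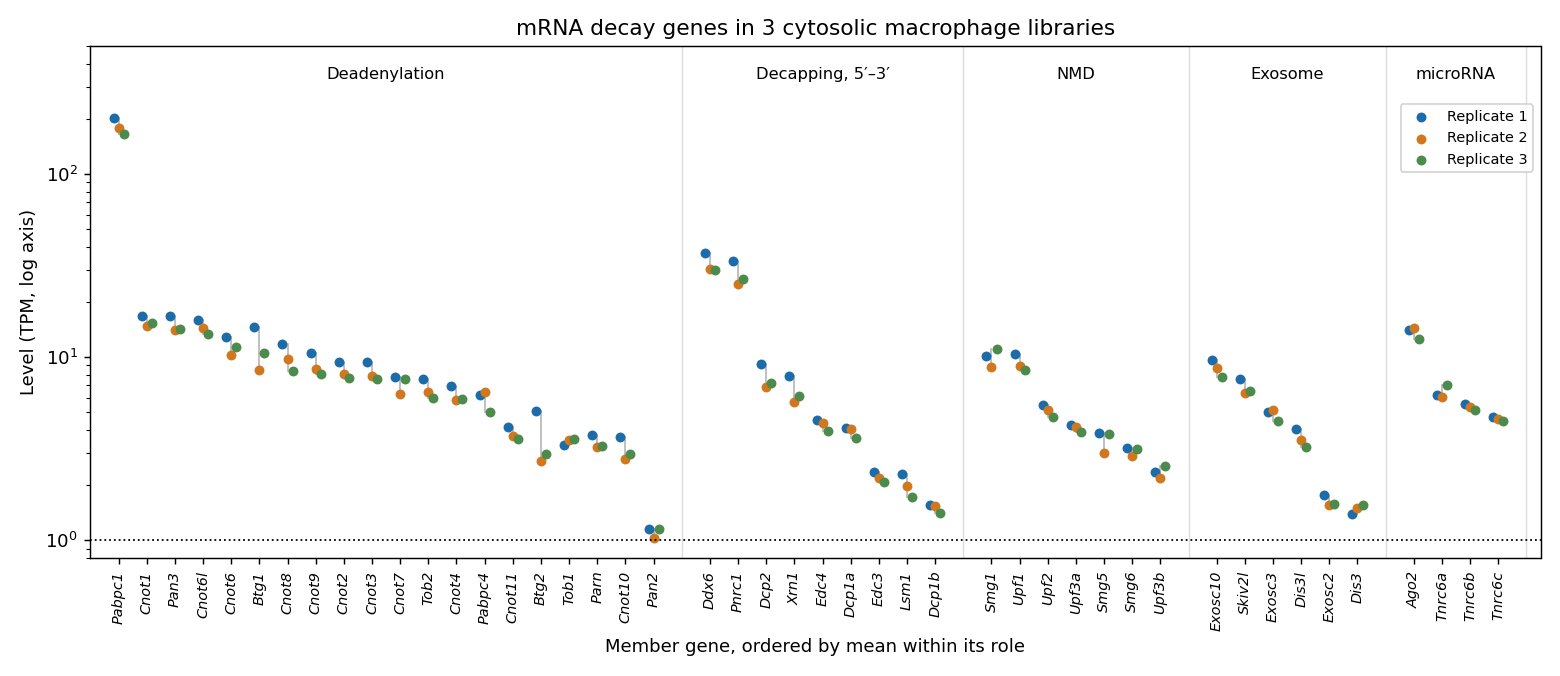
Level of each of the 46 genes in TPM on a log axis, by role and in falling order within a role, with 1 point per library and a grey line over the range of the 3 libraries. Pabpc1 stands above all others at 165 to 202 TPM, and Pan2 lies just over the detection line of 1 TPM (dotted).

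Among the deadenylation genes, the tail-coating protein gene far exceeded the enzymes. Pabpc1, the main cytoplasmic poly(A)-binding protein (chromosome 15, 36595661 to 36609668), had 202, 178 and 165 TPM in replicates 1, 2 and 3, the order kept in what follows. It stood at the 98.3 percentile of detected protein-coding genes. Its relative Pabpc4, an inducible poly(A)-binding protein, had 6.18, 6.44 and 5.0 TPM. Pabpc4 was thus far lower than Pabpc1 in every library, with a log2 ratio of -4.96 ± 0.14 (SD, n = 3). These values are uncertain, because 84.9% of the 31-base words of the leading Pabpc4 transcript and 33.4% of those of Pabpc1 also occur in transcripts of other genes. The processed pseudogenes that shared most with them, Gm10110 and Gm16580, had mean levels of 0.0967 and 0.403 TPM.

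Among the subunits of Ccr4-Not that are not nucleases, the scaffold was highest. Cnot1, on which the other subunits assemble (chromosome 8, 95719451 to 95807464), had 16.8, 14.8 and 15.3 TPM. Cnot2 and Cnot3, which bind the same end of the scaffold, lay at like levels. Cnot2 had 9.42, 8.04 and 7.72 TPM, and Cnot3 had 9.40, 7.91 and 7.62 TPM. Their ranges overlapped, with Cnot2 slightly higher in each library. Cnot9, which binds Tnrc6 proteins, had 10.5, 8.60 and 8.12 TPM. Cnot4, a ubiquitin ligase, had 6.98, 5.83 and 5.88 TPM. The pair that binds the other end of the scaffold was lowest of these, with 3.68, 2.79 and 2.97 TPM for Cnot10 and 4.14, 3.72 and 3.56 TPM for Cnot11. Every library of Cnot1 was above every library of the other non-catalytic subunits.

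The nuclease subunits of Ccr4-Not come as paralog pairs, of which a complex holds a member each. Cnot6l had 16.0, 14.5 and 13.3 TPM, against 12.8, 10.3 and 11.3 TPM for Cnot6, nucleases of the Ccr4 type. The Cnot6l range overlapped that of Cnot1, but Cnot6l was the lower in each library. By kallisto-format TPM Cnot6l was the higher in each library, with 12.4, 14.0 and 9.71 TPM, against 10.7, 10.4 and 9.63 TPM for Cnot1. Cnot6l was higher than Cnot6 in all 3 libraries, by 0.34 ± 0.14 on the log2 scale, a ratio of 1.27. Cnot8 had 11.8, 9.77 and 8.38 TPM, against 7.78, 6.29 and 7.59 TPM for Cnot7, nucleases of the Caf1 type. Here the log2 ratio was 0.46 ± 0.27, and it was 0.14 in replicate 3, so the excess of Cnot8 was small in that library. Neither pair differed by 1.5 times in every library.

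The mRNA levels of the Pan2-Pan3 deadenylase subunits were unequal. Pan3, the RNA-binding subunit (chromosome 5, 147430161 to 147548502), had 16.7, 14.1 and 14.2 TPM. Pan2, the nuclease (chromosome 10, 128303335 to 128321358), had 1.15, 1.03 and 1.15 TPM and was the lowest of the 46 genes, at the 0.255 percentile of detected protein-coding genes. Pan3 was 13.5 times as high, with a log2 ratio of 3.76 ± 0.12. This ratio was added after the values were seen. Pan3 also had the most annotated transcripts of all members (23), and its leading transcript Pan3-201 held 16.6%, 20.1% and 24.2% of its TPM. Parn, a separate poly(A)-specific ribonuclease, had 3.74, 3.23 and 3.28 TPM.

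The antiproliferative Tob and Btg proteins bind the Caf1-type nucleases and stimulate deadenylation. Btg1 (chromosome 10, 96617006 to 96622809) had 14.6, 8.53 and 10.5 TPM, and Btg2 (chromosome 1, 134075170 to 134079120) had 5.10, 2.72 and 2.94 TPM. The libraries of Btg2 all lay below those of Btg1, with a log2 ratio of -1.67 ± 0.17 for Btg2 over Btg1. Tob2 had 7.62, 6.46 and 5.97 TPM, against 3.30, 3.52 and 3.57 TPM for Tob1. Tob2 was the higher of the Tob pair in every library, with a log2 ratio of 0.94 ± 0.24.

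In the decapping role, an RNA helicase and a coactivator were far above the enzyme. Ddx6, the helicase of processing bodies (chromosome 9, 44604892 to 44640731), had 36.9, 30.4 and 30.0 TPM. Pnrc1, a nuclear receptor coactivator that also binds decapping factors, had 33.5, 25.1 and 26.6 TPM. Dcp2, the enzyme that removes the cap (chromosome 18, 44380502 to 44424969), had 9.16, 6.83 and 7.20 TPM, and Xrn1, which digests the decapped mRNA, had 7.86, 5.70 and 6.17 TPM. The Dcp2 and Xrn1 ranges overlapped, but Dcp2 was the higher in each library. This order depends on short transcripts with few counts. Dcp2 includes 2.45, 1.85 and 1.85 TPM of the 398-base Dcp2-202, on 20, 29 and 38 counts. Xrn1 includes 1.34, 0.650 and 0.520 TPM of the 357-base Xrn1-206, on 8 counts in each library. Dcp2-201 had 6.71, 4.99 and 5.36 TPM. It lay below Xrn1 as a whole but above the leading Xrn1-202 (5.43, 4.41 and 4.79 TPM).

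The Dcp1 and Edc partners of Dcp2 were lower than Dcp2 itself. Dcp1a, its direct partner, had 4.10, 4.03 and 3.63 TPM, and the paralog Dcp1b had 1.55, 1.53 and 1.41 TPM. The log2 ratio of Dcp1b to Dcp1a was -1.39 ± 0.02, with the libraries closely alike. Edc4, the scaffold of the decapping complex, had 4.54, 4.34 and 3.94 TPM, and Edc3 had 2.36, 2.19 and 2.07 TPM. Lsm1, the subunit that sets the cytoplasmic Lsm ring apart from the nuclear ring, had 2.31, 1.98 and 1.73 TPM. Ddx6, which binds this ring through Patl1, was 16.2 times as high as Lsm1 (log2 ratio 4.02 ± 0.09), another ratio added after the values were seen.

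**Figure D2:**
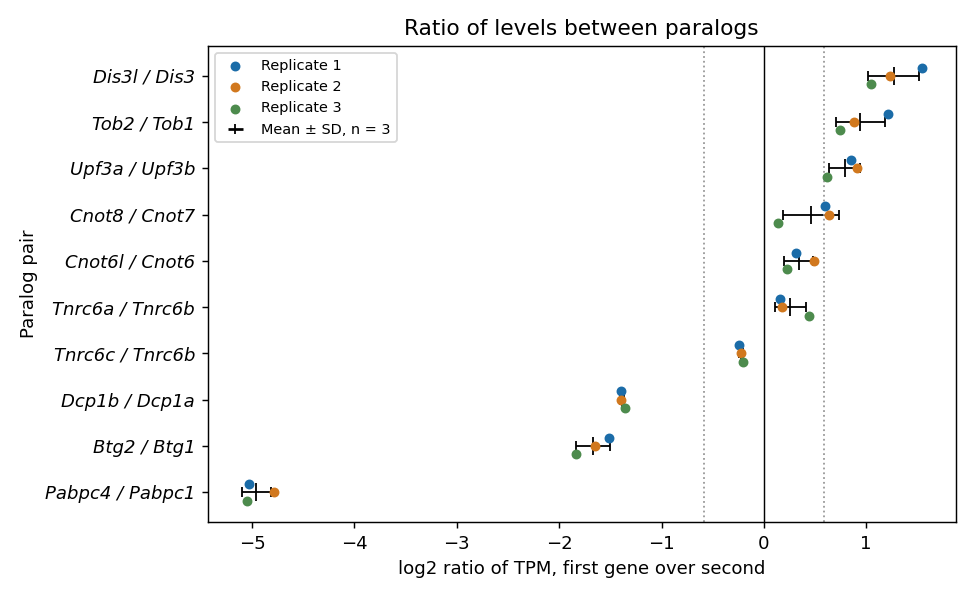
log2 ratio of TPM between the genes of each of 10 paralog pairs, the gene named first over the other, with 1 point per library and the mean ± SD (n = 3) in black; dotted lines mark 1.5 times. In 6 pairs all libraries lie past a dotted line on the same side, and Cnot8 over Cnot7 is the pair with the widest spread.

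In NMD, the kinase and the helicase led. Smg1, which phosphorylates Upf1 (chromosome 7, 118131308 to 118243670), had 10.1, 8.79 and 11.1 TPM. Upf1 had 10.4, 8.92 and 8.55 TPM, and its partner Upf2 had 5.51, 5.16 and 4.73 TPM. Upf3a and Upf3b tie Upf2 to the exon junction complex. Upf3a had 4.25, 4.14 and 3.90 TPM, against 2.36, 2.20 and 2.54 TPM for the X-linked Upf3b, a log2 ratio of 0.79 ± 0.15. Smg5, an adaptor of phosphorylated Upf1, had 3.86, 2.98 and 3.78 TPM. Smg6, the endonuclease of the pathway, had 3.20, 2.89 and 3.16 TPM. The Smg5 and Smg6 ranges overlapped, but Smg5 was the higher in each library. Both lay below Upf1 and Smg1 in every library.

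In the exosome branch, the nuclease best known from the nucleus was the highest. Exosc10 had 9.60, 8.67 and 7.75 TPM. Skiv2l, the helicase that feeds the cytoplasmic exosome, had 7.55, 6.39 and 6.51 TPM. The core subunits Exosc3 and Exosc2 had 5.03, 5.14 and 4.48 TPM and 1.77, 1.56 and 1.57 TPM in turn. Dis3l, the catalytic subunit of the cytoplasmic exosome, had 4.03, 3.51 and 3.21 TPM. Dis3, the mainly nuclear catalytic subunit (chromosome 14, 99075206 to 99099770), had 1.39, 1.5 and 1.55 TPM. Dis3l was higher than Dis3 in all libraries, with a log2 ratio of 1.27 ± 0.25.

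Among the microRNA effectors, Ago2, the slicing Argonaute (chromosome 15, 73095844 to 73184935), had 14.0, 14.5 and 12.5 TPM. The Tnrc6 scaffolds, which link Argonaute to the deadenylases, lay close together. Tnrc6a had 6.18, 6.03 and 7.0 TPM, Tnrc6b had 5.52, 5.31 and 5.17 TPM, and Tnrc6c had 4.69, 4.57 and 4.50 TPM. All of them were below Ago2 in every library. Tnrc6a over Tnrc6b gave a log2 ratio of 0.26 ± 0.15 and Tnrc6c over Tnrc6b gave -0.22 ± 0.02, which became 0.05 ± 0.04 when only protein-coding transcripts were counted. The authors' deposited interval for Tnrc6b in replicate 1 ran from 5.34 to 10.7 TPM, so the order within this family is poorly fixed. Over all families, 6 of the 10 paralog pairs differed by at least 1.5 times in the same direction in every library. With 3 libraries an exact sign-flip test cannot give a p below 0.25, so these ratios carry no test.

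Of 52 other genes of the pathway, 46 were detected in all libraries, 25 reached 5 TPM in all, and 5 were below 1 TPM in all. Their order by role was not that of the members. The other deadenylation genes had the lowest median, 1.27 ± 0.175 TPM with 3 of 8 below 1 TPM in all libraries, and the other NMD genes had the highest, 6.38 ± 0.542 TPM (SD, n = 3). The other decapping, microRNA and exosome genes had medians of 5.93 ± 0.597, 5.68 ± 0.537 and 4.22 ± 0.397 TPM. Paip2, a binding partner of poly(A)-binding protein, was the highest in deadenylation at 19.4 ± 3.39 TPM, and Btg4, a relative of Btg1, was listed at 0. Pnrc2, a partner of Dcp1a and Upf1, was the highest in decapping at 28.0 ± 5.10 TPM, and Patl2 was the lowest at 0.137 ± 0.0153 TPM. Eif4a3, the helicase of the exon junction complex, led the NMD genes at 26.9 ± 3.51 TPM, and Magohb, a subunit of that complex, closed them at 1.84 ± 0.223 TPM. Wdr61, a subunit of the Ski complex, led the exosome genes at 9.76 ± 1.26 TPM, and Exosc6 was listed at 0. The Argonautes Ago1 and Ago4 marked the ends of the microRNA genes at 8.20 ± 1.10 and 3.41 ± 0.010 TPM (SD, n = 3 for each).

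TPM was highest in replicate 1 for 38 of 46 members (82.6%) and for 82.7% of detected protein-coding genes, so the members followed the other genes in this. Protein-coding genes held 25.8%, 21.4% and 20.8% of TPM in replicates 1, 2 and 3. Libraries were therefore compared by CPM after TMM scaling, which sets most genes level. On this scale the members had a lower median spread than all genes tested. The SD of log2 CPM over the 3 libraries had a median of 0.08 over the members (range 0.01 to 0.36), against 0.12 over the 12413 genes tested and 0.11 over the protein-coding genes among them. Counting error alone would give a median SD of 0.04 for the members and 0.05 for all genes tested. The sets were not matched for level, so part of the lower spread may come from better counted genes. The highest library was at least 1.5 times the lowest in 1 of 46 members, against 15.4% of all genes tested. Among the 11222 protein-coding genes tested, 1216 reached this threshold. Cnot4 varied least, with 37.9, 37.5 and 37.2 CPM.

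The member past that threshold was Btg2, with 22.3, 14.0 and 15 CPM, a highest-to-lowest ratio of 1.59. Replicate 1 was the high library, and it was 1.53 times the mean of replicates 2 and 3 on the log scale. In bulk RNA, more cells with a transcript and more RNA per cell cannot be told apart. Btg1 came next, with 119, 83.0 and 96.8 CPM and a ratio of 1.44, again with replicate 1 on top. Tob1, from the related family, was lowest in replicate 1, with 11.8, 14.9 and 15 CPM. Set against the mean of the others at 1.5 times in either direction, replicate 1 stood away in 1 member, replicate 2 in 0 and replicate 3 in 0. The same measure called 7.47%, 6.46% and 7.35% of all genes tested in the same order. Of the 11222 protein-coding genes among them it called 530, 442 and 443. Measured as TPM rescaled to protein-coding genes, Btg2 in replicate 1 no longer stood 1.5 times away, and without replicate 1 or without replicate 2 no member spread by 1.5 times (0 of 46).

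**Figure D3:**
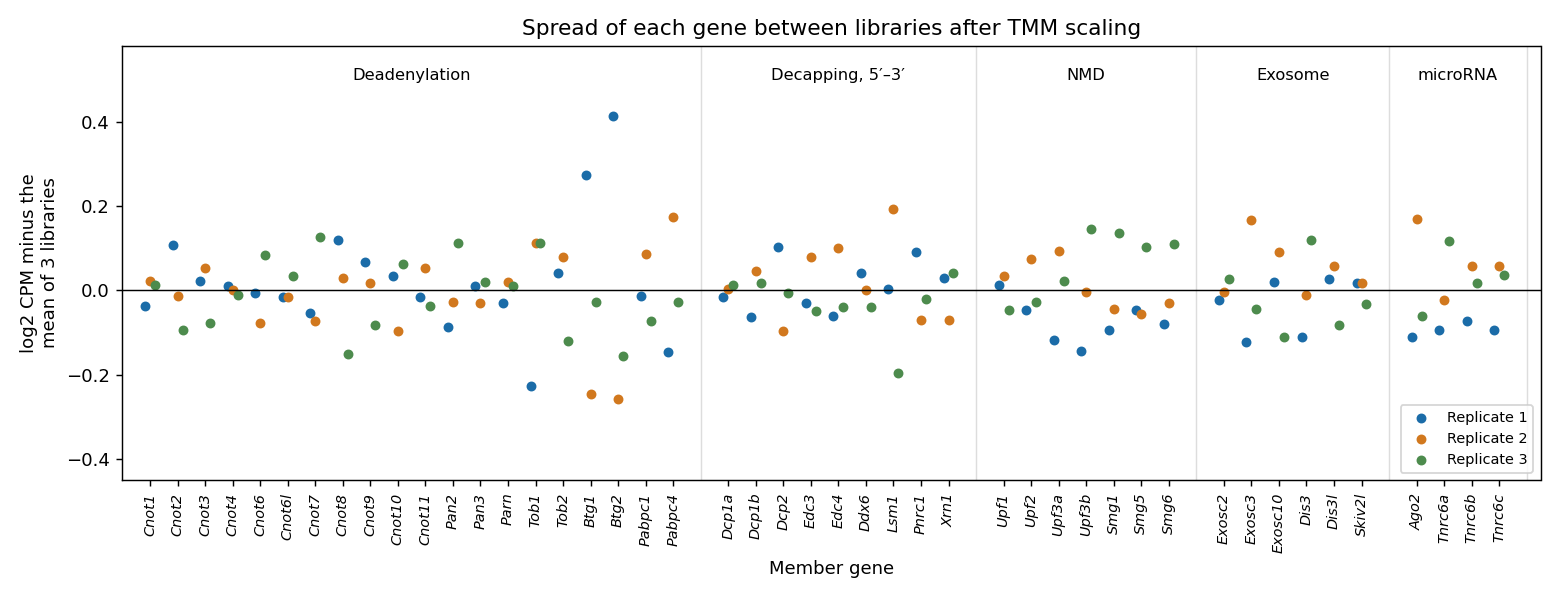
TMM-scaled log2 CPM of each member in each library minus the mean of its 3 libraries, by role. Btg2 and Btg1 show the widest spread, with replicate 1 on top.

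The nuclear RNAs Malat1 and Neat1 were 6.47 and 5.26 times as high in replicate 3 as in the other libraries. The median difference of replicate 3 from the mean of the others was 0.15 log2 over the 7 NMD genes, with 5 of them positive, against a median of 0.00 over all genes tested, of which 50.5% were positive. The NMD median was the largest of the 5 roles. The others were 0.04 for the microRNA effectors, -0.03 for deadenylation, -0.03 for decapping and -0.06 for the exosome branch. With library size alone the NMD median was 0.09 with 4 of 7 positive, against -0.06 and 37.9% over all genes. Smg1 had 235, 244 and 276 CPM, Smg6 had 30.1, 31.2 and 34.4 CPM, and Upf3b had 8.70, 9.58 and 10.6 CPM. Smg5 had 24.4, 24.2 and 27.0 CPM. Each was highest in replicate 3, while Upf1 was lowest there with 77.4, 78.2 and 74.3 CPM. Ago2 had 330, 401 and 343 CPM. All 4 microRNA effectors were lowest in replicate 1 after TMM scaling, against 34.1% of all genes tested, but with library size alone 2 of 4 were, against 21.1%, and Ago2 and Tnrc6b were lowest in replicate 3. None of these shifts reached 1.5 times, and the part of the nuclear RNAs in them was not tested. After TMM scaling replicate 1 was also lowest in 5 of 7 NMD genes and 3 of 6 exosome genes. It was lowest in 3 of 9 decapping genes and 6 of 20 deadenylation genes. NMD and the microRNA effectors were thus the extremes of the 5 roles, and no test allowed for singling them out.

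The leading transcript, the one with the most TPM of its gene, was annotated as protein coding in all 46 members. It held at least 90% of the gene's TPM in 18 members and under 50% in 5. These counts describe the list and have no background from other genes. The members have 1 to 23 annotated transcripts, and a sole transcript holds all of its gene's TPM. Upf1-202, the form without the 33 bases printed above, held 91.3%, 93.6% and 93.3% of Upf1. Upf1-201, with the 33 bases, held 8.67%, 6.38% and 6.67%, and 10.6 ± 1.53% in the kallisto-format tables. The short form was thus the main one in every library and by both quantifications. Dcp2-202, a 398-base transcript annotated as protein coding, held 26.7%, 27.0% and 25.7% of Dcp2 TPM from only 20, 29 and 38 counts, since TPM divides counts by length.

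Edc3-202 was the only transcript not annotated as protein coding that held 20% or more of a member's mean TPM. Its share was 32.8%, 35.2% and 45.4% in replicates 1, 2 and 3, on 148, 264 and 422 expected counts. Edc3-201 held the rest of the Edc3 TPM, 67.2%, 64.8% and 54.6%. The NMD-type form was below the coding form in every library and highest in replicate 3. Its mean share was 37.8 ± 6.72% here and 38.5 ± 4.08% in the kallisto-format tables (SD, n = 3). In TPM, Edc3-202 had 0.770, 0.770 and 0.940. The forms also differ at the far end, where Edc3-201 runs 1096 bases further. Exons of Clk3, a gene on the opposite strand with a mean of 9.45 TPM, overlap 504 bases of that stretch and 780 bases of Edc3-202. Whether the counting used strand is not given in the sources used here, so reads of Clk3 and Edc3 may not have been told apart.

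**Figure D4:**
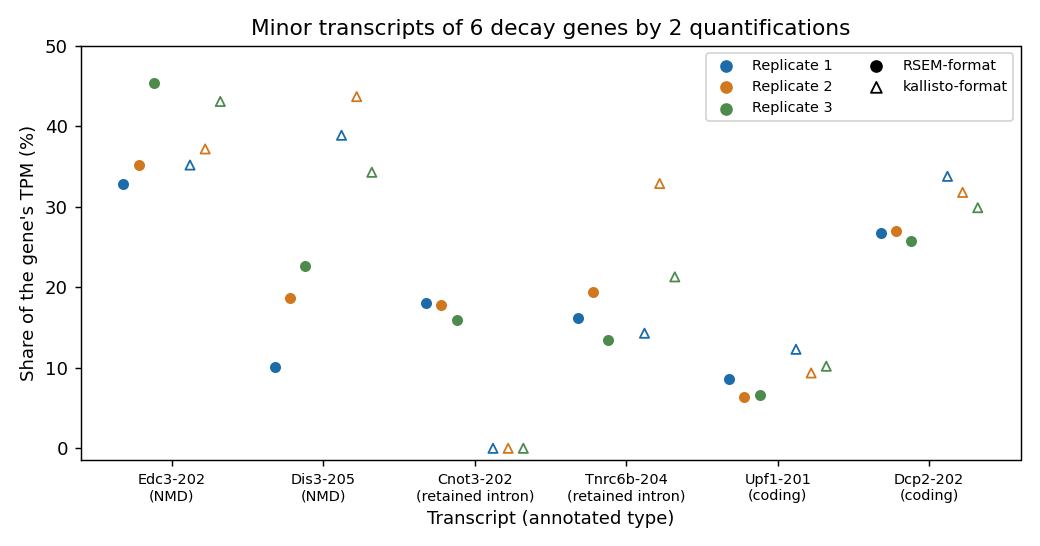
Share of the gene's TPM held by 6 minor transcripts in each library, by the RSEM-format tables (filled circles) and the kallisto-format tables (open triangles), with the annotated type in brackets. All points of Edc3-202 lie between 32.8% and 45.4%, whereas Dis3-205 and Cnot3-202 differ between the quantifications.

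Transcripts not annotated as protein coding held at least 20% of the TPM in 5 members, or 10.9%, against 17.0% of the detected protein-coding genes. The count was 8 without replicate 1, 10 in the kallisto-format tables (21.7%, against 20.2%) and 2 by share of expected counts (4.35%, against 8.85%). The 17.0% does not apply to the count without replicate 1. Edc3 was followed by Cnot3 with 31.1 ± 4.08%, Dis3 with 29.6 ± 9.46%, Pan3 with 26.2 ± 5.92% and Cnot2 with 21.4 ± 4.28% (SD, n = 3). In Cnot3 nearly all of it was annotated as retained intron (30.9 ± 4.07%). Other minor transcripts, chosen after their values were seen, were less certain than Edc3-202. Dis3-205, an NMD-type transcript, held 17.1 ± 6.40%, but 38.9 ± 4.67% in the kallisto-format tables, where it led the gene. Cnot3-202, a retained-intron transcript, held 17.2 ± 1.18%, but 0% in the kallisto-format tables. Tnrc6b-204, of the same type, held 16.3 ± 3.02%, but 22.8 ± 9.38% there.

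Retained-intron transcripts took more of the members' TPM in replicate 3, as they did across genes. Their median share over the 46 members was 3.61% in replicate 3, against 0.679% in replicate 1 and 0.432% in replicate 2. Over 9005 detected protein-coding genes the median was 1.16% in replicate 3, against 0.0974% and 0.102% in replicates 1 and 2. Replicate 3 was highest in 30 of 46 members, and in 48.5% of those genes. Malat1 and Neat1 were also highest in replicate 3. Their part in the retained-intron share was not tested.

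The leading transcripts of the members were long. Their median length was 4051 bases, with 1893 bases of coding sequence and a 3′ untranslated region (UTR) of 1246 bases. Detected protein-coding genes had medians of 2788, 1293 and 935 bases in the same order. A 3′ UTR of over 2000 bases was found in 17 members, or 37.0%, against 23.9% of detected protein-coding genes. The microRNA effectors stood out in length, with all 4 past 2000 bases and a median of 6826. Tnrc6b had 11609 bases and Ago2 had 11064. In decapping the median was 3757 bases and in the exosome branch 250 bases. These lengths are annotated ones and were not measured here.

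Sequence shared with other genes limits some levels. Under 1% of the 31-base words of the leading transcript occurred in other genes for 30 members, and at least 10% did for 5. Besides Pabpc4 and Pabpc1, these were Cnot3 (27.4%, with the pseudogene Gm9207), Cnot8 (15.2%, with Gm18860) and Cnot1 (10.7%, mostly with Gm6158). The mean levels of these pseudogenes were 0.0467, 0.0300 and 0.993 TPM in the same order. Exons on the opposite strand overlapped 15 members, and exons of another gene on the same strand overlapped 5.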

How the data were processed

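Per the labels, each library is ribosomal RNA-depleted total RNA from cytosol. The authors deposited expected counts (estimated reads per gene or transcript, not whole) and TPM (scaled by effective length to a fixed total) in tables with RSEM and kallisto columns, per the file headers. Per the deposited notes, values refer to mm10 and GENCODE M21; tool versions and strand use are not given in the sources used here. The authors also deposited bounds of a TPM interval, of unstated level. TPM of all RNA classes share the total, so mRNA values move with the noncoding share.

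The members and lists were chosen with earlier results of these data known, so no list was tested. Detection meant a TPM of at least 1. Role medians in the Results were taken of TPM, and those compared with the alternatives of log2(TPM + 1). Expected counts were rounded for edgeR 4.0.16 (R 4.3.3) with TMM scaling and its filter on low counts. A prior count of 2 and an intercept-only design were used. These steps were also run on simulated counts of well-covered genes, with less variation between libraries than in the data. That check does not cover genes with few counts. All 46 members passed the filter. TMM factors were 1.04, 0.992 and 0.971, and the common biological coefficient of variation was 0.145. A gene with 0 counts could have held 3 counts, or 0.114, 0.0716 and 0.0533 CPM in replicates 1, 2 and 3. Such floors and the counting SD cover counting error only. Isoform shares are percentages of gene TPM summed from the transcript tables. By rule, all members and the highest and the lowest other gene of each role were named. The rule also took in leading transcripts, and transcripts not annotated as protein coding with at least 20% of a member's TPM. Upf1-201, Dcp2-202, Dis3-205, Cnot3-202 and Tnrc6b-204 were named outside this rule. Alternatives were posterior mean TPM, kallisto-format TPM rescaled to the same total, other thresholds and pseudocounts, DESeq2 1.42.0 size factors, other scalings and filters, and leaving out each library.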

Additional observations from a re-analysis of the deposited data

How the results depend on the processing

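Of 92 alternative values for the main results, 68 kept within the spread between libraries or within 1.5 times of a count, and 24 moved. With kallisto-format TPM the role medians of log2(TPM + 1) were 2.69 for deadenylation, 1.88 for decapping, 1.91 for NMD, 1.95 for the exosome branch and 2.52 for microRNA effectors, against 3.13, 2.40, 2.35, 2.37 and 2.77. With a pseudocount of 0.1 they were 2.97, 2.13, 2.07, 2.09 and 2.57 in the same order, a change of scale. Means over members in place of medians gave 2.80 for decapping, 2.53 for NMD and 2.98 for microRNA effectors, and posterior mean TPM gave 2.93 for the last of these. Under each of these settings deadenylation stayed highest and the microRNA effectors next. At 5 TPM, 25 members were detected, and at 10 expected counts 46 were. The count of members spread by 1.5 times or more was 2 with library size alone (Btg2 and Btg1), 0 at a threshold of 2 times, and 0 to 1 when each replicate was left out. The 15.4% of all genes tested belongs to the main setting and is no background for these counts. The median SD was 0.06 to 0.08 when each replicate was left out. Replicate 1 stood away in 0 members on rescaled TPM. Members with at least 20% of TPM outside protein-coding transcripts numbered 10 in the kallisto-format tables, 2 by expected counts and 5 to 8 when each replicate was left out. The log2 ratio of Tnrc6c over Tnrc6b turned to 0.05 with protein-coding transcripts only. Over the 10 paralog pairs, 19 of 70 alternative ratios moved by more than the spread between libraries and kept their direction. By the kallisto-format quantification a protein-coding transcript led in 45 of 46 members, and the leading transcript was the same one in 43. The cause was not tested for any of these. Depth limits transcripts with few counts, such as Dis3-205 with 19, 65 and 105.
No paired comparison of treatments was possible because the series holds 1 group. Ratios between genes were taken within each library.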

Other observations

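Exosc6, a core subunit of the exosome, was listed at 0 in every library by both quantifications. The 9 other Exosc genes had means between 1.63 TPM (Exosc2) and 8.67 TPM (Exosc10). In the annotation, all 1326 exon bases of Exosc6 (chr8:111056339-111057664) are covered by an exon of Aars, the alanyl-tRNA synthetase gene on the same strand. Aars had 10.3, 9.65 and 8.59 TPM in replicates 1, 2 and 3. Reads from the 2 genes cannot be told apart over that stretch, so the level of Exosc6 is unknown here.

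Chosen after the values were seen, further partner ratios were 1.96 for Dcp2 over Dcp1a (log2 0.97 ± 0.20), 1.94 for Edc4 over Edc3 (log2 0.95 ± 0.03) and 1.81 for Upf1 over Upf2 (log2 0.85 ± 0.06; SD, n = 3). The Dcp2 level in the first ratio includes Dcp2-202, which held 26.7%, 27.0% and 25.7% of Dcp2 TPM on few counts. Dcp2-201 alone had 6.71, 4.99 and 5.36 TPM, still above the 4.10, 4.03 and 3.63 TPM of Dcp1a. With only protein-coding transcripts counted, the log2 ratio of Edc4 over Edc3 was 1.62 ± 0.14. Leaving out replicate 3, in which the Edc3-202 share was highest, gave a mean share of 34.0%.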
